A study of Homo sapiens with 4 samples.

Results

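The ribosomal protein genes are the protein-coding genes for the proteins of the cytoplasmic ribosome. They were taken here as the autosomal genes whose symbol is RPL or RPS with a number and at most 1 letter, together with RPLP0, RPLP1, RPLP2 and RPSA. This gave 73 genes, 43 of the large and 30 of the small subunit, of 19122 autosomal protein-coding genes in a RefSeq table on GRCh38.p14, the build of the peak lists (hg38). The rule reads gene symbols only. The open chromatin of each gene was read at its ends, as the tallest peak that came within 1000 bp of the upper or the lower gene end.

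Chromatin was assayed in AMO1, a human multiple myeloma line of plasma cell origin, by ATAC-seq, an assay that uses Tn5 transposase to cut and tag accessible DNA. The 4 libraries, 1 per group, were PHF19 overexpression (cells transfected with a PHF19 plasmid), empty vector (PCDH without an insert), IFN PHF19 overexpression and IFN empty vector. PHF19 is an accessory subunit of Polycomb repressive complex 2, a histone methyltransferase. The labels do not explain the prefix IFN that the last 2 carry in their titles, and all 4 groups share the AMO1 background. With 1 library per group there was no replicate and no test, so a difference between libraries below is not shown to be one between conditions. Peak height is the number of fragments over the summit scaled to the sequencing depth of its library and given as fragments per M, where M stands for mega, and the file headers give 18.2, 27.4, 16.4 and 65.9 M fragments for the 4 libraries in the order above.

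The cells' identity and the vector could be checked in the lists. All 5 plasma cell genes looked at (SDC1, XBP1, IRF4, PRDM1 and TNFRSF17) had a gene-end peak in every library. SDC1, which codes for the plasma cell surface protein CD138, stood at 158 to 314 fragments per M, IRF4 at 10.6 to 18.9, TNFRSF17 at 7.52 to 11.2 and XBP1 at 6.93 to 9.06. PRDM1, which codes for the plasma cell regulator BLIMP1, stood at only 1.04 to 1.49. Neither myeloid gene (CD14, LYZ) had one in any library. Of the T cell genes, CD3D had a peak only in the deepest library, at 0.288 fragments per M, and CD3E had one in all 4 at 12.1 to 14.4, above XBP1, TNFRSF17 and PRDM1 in each library. Of the epithelial genes, KRT8 had a peak in 3 libraries at 1.09 to 2.14, about the height of PRDM1, and EPCAM in 1 at 2.41. The marker peaks thus did not all follow the labelled cell type. A peak within PHF19 was listed in both overexpression libraries, at chr9:120857950-120858284 with 7.90 fragments per M in PHF19 overexpression and at chr9:120857960-120858282 with 7.33 in IFN PHF19 overexpression, and in neither empty vector library.

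A ribosome is built from ribosomal RNA and these proteins, each in a fixed number of copies, so their genes are used together and strongly in nearly every growing cell. Their transcripts typically begin within an unbroken run of C and T bases, the terminal oligopyrimidine tract, through which mTOR signalling controls their translation. Many of the genes also carry small nucleolar RNAs (snoRNAs), which guide chemical changes of ribosomal RNA, in their introns. Plasma cells and myeloma cells secrete large amounts of antibody protein and depend on high rates of translation.

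The promoter sequences show what the genes share around the open site. For 58 of the 73 genes the RefSeq promoter table (GRCh38.p14) held a window of 250 bases before to 50 after a transcript start. Each sequence here holds 120 bases before the start and 20 from it, 5′ to 3′ on the coding strand, and capitals mark the longest run of C and T bases within the region from 15 bases before to 30 after the start. Where several starts are listed, the one nearest the summit in IFN empty vector was used. RPS14 is shown because its log2 ratios under PHF19 overexpression were the lowest in both pairs of libraries, RPL19 because it was low in both pairs as well, RPL9 because it was high in both, RPS7 because its peak was among the tallest, and RPL38 because its peak was the lowest.
RPS14, chr5:150449720-150449859, minus strand: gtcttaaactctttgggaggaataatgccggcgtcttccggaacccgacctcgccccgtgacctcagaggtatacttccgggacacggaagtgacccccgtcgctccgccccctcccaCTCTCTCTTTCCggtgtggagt
RPL19, chr17:39200163-39200302, plus strand: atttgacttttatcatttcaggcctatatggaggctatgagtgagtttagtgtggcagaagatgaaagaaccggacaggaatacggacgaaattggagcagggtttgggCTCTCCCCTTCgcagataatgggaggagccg
RPL9, chr4:39458903-39459042, minus strand: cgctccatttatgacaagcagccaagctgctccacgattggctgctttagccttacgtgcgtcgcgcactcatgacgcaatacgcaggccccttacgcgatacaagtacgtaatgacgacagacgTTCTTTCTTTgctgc
RPS7, chr2:3575140-3575279, plus strand: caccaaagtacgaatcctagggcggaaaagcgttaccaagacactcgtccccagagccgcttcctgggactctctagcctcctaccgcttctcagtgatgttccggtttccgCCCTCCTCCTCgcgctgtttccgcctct
RPL38, chr17:74203558-74203697, plus strand: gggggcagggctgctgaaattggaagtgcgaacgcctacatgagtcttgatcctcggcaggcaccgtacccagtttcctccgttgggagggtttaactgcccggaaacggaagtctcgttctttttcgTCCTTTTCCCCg

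The run in RPS14 is 12 bases long, that in RPL9 10, and those in RPL19, RPS7 and RPL38 11 each. A run of at least 8 C or T bases stood at the start of 50 of the 58 genes (86.2%), with a median length of 11 bases, against 16.8% of all 15100 promoters in the table, with a median of 5. Over the promoters of genes whose ends were open in IFN empty vector the share was 16.2%. The short pyrimidine word CTCTTTC, searched on the coding strand, was in 11 of 58 windows (19%) and in 3.8% of all promoters. In 10 of the 11, RPS14 among them, the word, itself made of C and T, overlapped the longest run near the start. In RPL19 the word lay after the run, beyond the bases printed above.

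Among 6-base and 7-base factor motifs searched on both strands, the ETS-type CCGGAAG was in 19 of 58 windows (32.8%), against 14.5% of all promoters and 19.3% of those with a peak. The YY1-type AAGATGG was in 8 (13.8%), against 6.4% and 7.8%. The SP1-type GGGCGG was in 31 (53.4%), against 60.2% and 70.7%, the E-box CACGTG in 3 (5.2%), against 8.8% and 10.3%, and the TATA word TATAAA in 5 (8.6%), against 9.5% and 5.6%. The median GC content of the windows was 59.3% (39.7% to 72.3%), below the 63.3% of all promoters and the 65.7% of promoters with a peak. These shares describe letters and not bound factors.

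Every one of the 73 genes had a gene-end peak in every library. Of all 19122 genes, 11483 (60.1%) had one in all 4, and the share in single libraries was 61.7% in PHF19 overexpression, 62.5% in empty vector, 61.8% in IFN PHF19 overexpression and 65.7% in IFN empty vector. The mitochondrial ribosomal proteins, coded by 77 nuclear genes and built into the separate ribosome of that organelle, had one in all 4 for 73 genes (94.8%).

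The peaks were of middle height. Their median was 7.24 fragments per M in PHF19 overexpression, 8.59 in empty vector, 7.69 in IFN PHF19 overexpression and 7.12 in IFN empty vector, beside 7.13, 8.0, 7.39 and 6.24 for all genes with a gene-end peak. The median percentile of the 73 genes among those was 51.1, 54.4, 52.3 and 57.9 in the same order. No ribosomal protein gene lay in the lowest 10% of any library, and 4, 6, 5 and 7 of them lay in the highest 10%. The lowest 25% held 9 and 8 of them in PHF19 overexpression and IFN PHF19 overexpression, and 2 and 1 in empty vector and IFN empty vector. The genes ranked were not the same in each library. They numbered 11806, 11958, 11825 and 12572 in the order above, with lower quartiles of 4.28, 4.42, 4.46 and 3.34 fragments per M. The part of this in the counts was not tested. The heights were also closer together than those of other genes: the upper quartile was 1.62 to 1.78 times the lower one, against 2.38 to 2.76 times over all genes with a peak. Large subunit genes had medians of 7.30, 8.51, 7.63 and 7.01 fragments per M in the 4 libraries and small subunit genes 7.24, 8.95, 8.06 and 7.15.

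**Figure D1:**
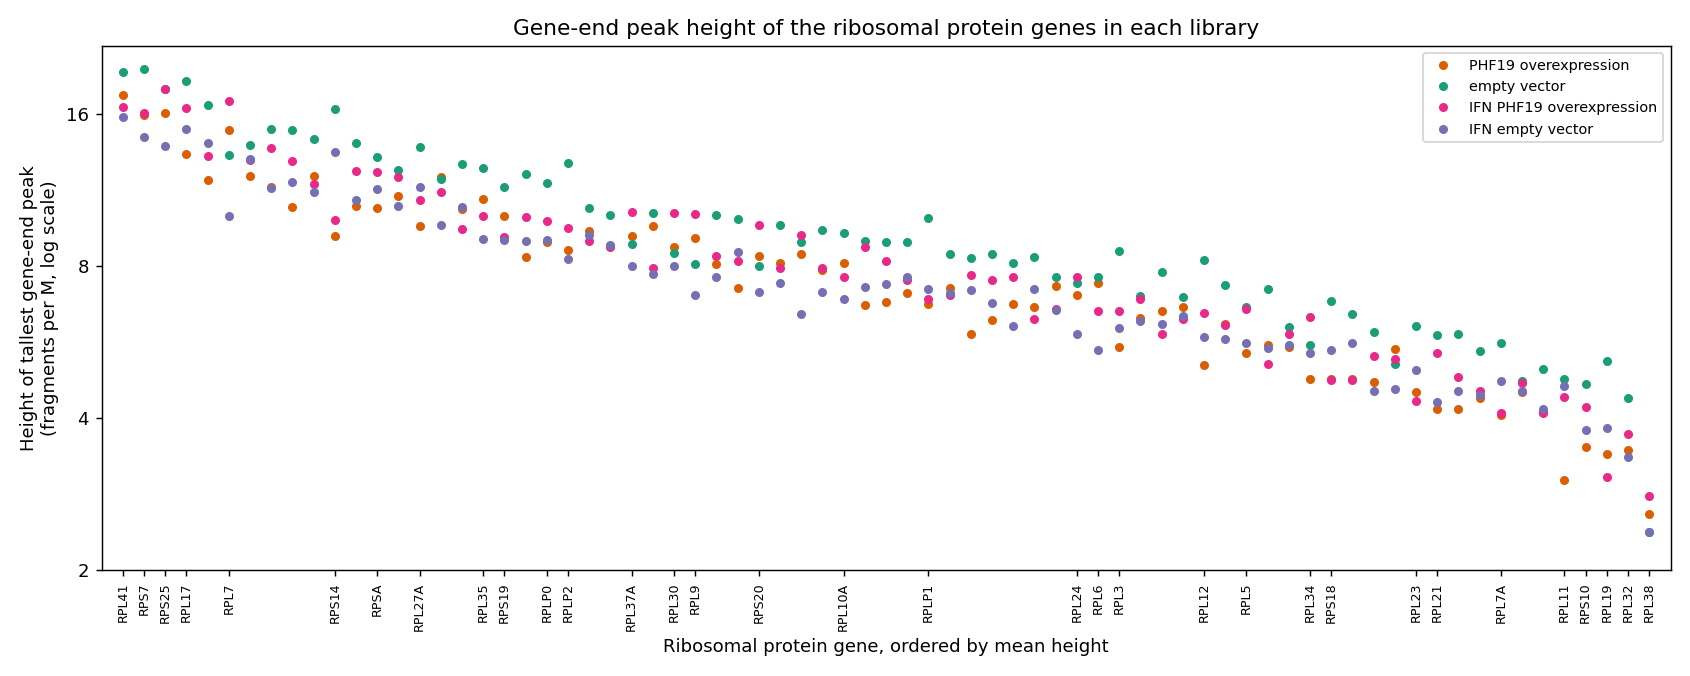
Height of the tallest gene-end peak (fragments per M, log axis) of each of the 73 ribosomal protein genes, ordered by the mean of the 4 libraries, with 1 point per library and the genes chosen by the naming rule labelled. Heights run from RPL41, with a mean of 17.3, to RPL38, with a mean of 2.54, and the 4 points of a gene lie close together beside that range.

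The tallest peaks were those of RPL41, which codes for a very small protein of the large subunit, RPS7, RPS25 and RPL17. The peaks read for RPL41 and RPL17 had summits over 1000 bp from a listed start. They were shared with an end of ZC3H10 for RPL41 and of C18orf32 for RPL17, so they may not belong to these genes. RPL41 stood at 17.5 fragments per M in PHF19 overexpression, 19.4 in empty vector, 16.6 in IFN PHF19 overexpression and 15.8 in IFN empty vector. RPS7, a small subunit protein, had 16, 19.7, 16.1 and 14.5 in the same order. RPS25, a small subunit protein needed for initiation at some viral internal entry sites, had 16.1, 18.0, 18.0 and 13.8. The summit of RPS7 lay 61 to 91 bases after the listed start in all 4 libraries.

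The lowest peaks were those of RPL38, RPL32, RPL19 and RPS10. RPL38, which in mouse is required for the translation of several homeobox gene transcripts, had 2.58, 2.38, 2.81 and 2.38 fragments per M in the 4 libraries, from 47, 65, 46 and 157 fragments. RPL32 had 3.46, 4.39, 3.73 and 3.35. RPL19 had 3.40, 5.19, 3.05 and 3.82. RPS10, one of the small subunit genes mutated in Diamond-Blackfan anaemia, had 3.51, 4.68, 4.21 and 3.79. Even the lowest of these, 46 fragments, is far above the lowest summit listed in that library, 8 fragments.

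The order of the genes was much the same in every library. Over the 73 genes Spearman's rho between 2 libraries lay between 0.92 and 0.97, as a description over genes that share these libraries. Neighbours in the order were not separable: RPS7 was above RPL41 in empty vector and below it in the other 3 libraries. The likeness was highest between the empty vector libraries (0.97) and between the overexpression libraries (0.96).

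Height varied little with the promoter features. Among the 48 genes whose summit in IFN empty vector lay within 250 bases of a listed start, the 16 with CCGGAAG had a median of the mean heights of 6.10 fragments per M and the 32 without it 7.75, with ranges of 3.73 to 16.5 and 2.54 to 16.6 that overlap almost wholly. Spearman's rho with height was -0.21 for the length of the pyrimidine run and 0.23 for GC content, weak values over 48 genes.

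The summits lay just before the transcript starts. In the 4 libraries the median position of the summit relative to the listed start was -81, -66, -82 and -70 bases, negative being before the start, and for all genes -35, -35, -37 and -40 bases. It lay within 250 bases of a listed start for 47, 49, 48 and 48 of 58 genes (81.0% to 84.5%), against 67.5% to 70.1% of all genes. Several summits within the peak were listed for 9, 11, 9 and 14 of the 73 genes (12.3%, 15.1%, 12.3% and 19.2%), against 21.5% to 25.6% of all genes with a peak. Peak length was near that of all genes, with medians of 1208, 1309, 1206 and 1537 bp against 1234, 1274, 1209 and 1396 bp.

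The tallest peak was the same stretch in all 4 libraries for 72 of 73 genes, and the 4 summits lay within 100 bp of each other for 66. The exception was RPS2, whose tallest summit was at the upper gene end in PHF19 overexpression and IFN empty vector and at the lower end in empty vector and IFN PHF19 overexpression. The upper end of RPS2 had 6.15, 7.13, 5.56 and 5.74 fragments per M and the lower end 2.91, 7.34, 6.11 and 5.58, so the choice between the ends rested on small differences in 3 of the libraries. For RPL41, RPL17, RPL27A, RPL4 and RPL6 the tallest summit lay over 1000 bp from any listed start. Within 1000 bp of its listed start, RPL6 had peaks of 2.19, 3.40, 2.87 and 3.14 fragments per M, where its tallest peak, shared with an end of PTPN11, had 7.41, 7.60, 6.53 and 5.46. RPL17 had 3.40, 5.81, 4.46 and 4.31 at its start, where its tallest peak, shared with an end of C18orf32, had 13.3, 18.6, 16.4 and 15. RPL41 had 6.31 and 6.53 at its start in PHF19 overexpression and IFN PHF19 overexpression, whereas in both empty vector libraries 1 listed peak covered start and tallest summit, so its start cannot be compared across libraries.

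Peaks were often shared with a neighbour. For 25 of 73 genes (34.2%) the tallest peak also reached another protein-coding gene's end, close to the 31.5% of all genes with a peak in IFN empty vector. RPL7 shared its peak with RDH10, RPL9 with LIAS, RPL12 with LRSAM1, RPL23A with RAB34, RPS25 with TRAPPC4 and RPLP2 with PIDD1. Such a peak does not say which of the 2 genes it belongs to. The genes with a shared peak had a median mean height of 7.99 fragments per M and the other 48 genes 7.58. By contrast, 27 of the 73 genes (37.0%) held at least 1 snoRNA gene within their bounds, 58 in all, against 2.60% of all genes: RPL7A held SNORD24 and 3 SNORD36 genes, and RPL3 held SNORD83A, SNORD83B, SNORD139 and SNORD43.

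The first question was what PHF19 overexpression did to these peaks. Heights were compared as log2 ratios less the median of all genes with a peak in both libraries, so that 0 is the middle gene, and a gene was counted as higher or lower at a difference of 0.5. In PHF19 overexpression over empty vector the 73 genes had a median log2 ratio of -0.13 (95% rank interval -0.19 to -0.05, over genes and not over cultures) and 52 of them (71.2%) lay below 0. None was higher by 0.5, where 7.84% of all 11589 genes compared were, and 2, RPS14 and RPL12, were lower, where 2.67% of all genes were. A count of 2 in 73 is near that share. Log2 ratios ran from -0.66 to 0.35, with an interquartile range of -0.27 to 0.02 beside -0.15 to 0.20 over all genes.

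Counting error was given by the exact 95% interval for the ratio of the 2 fragment counts. It lay wholly below 0 for 11 of the 73 genes, where 8.04% of all genes did, and wholly above 0 for 2, where 12.4% did. The 11 were RPL3, RPL11, RPL12, RPL13, RPL17, RPL18, RPL23A, RPL27A, RPLP1, RPLP2 and RPS14, and the 2 were RPL7 and RPL9. The median width of the interval was 0.63, so most single genes could not be placed on either side.

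In IFN PHF19 overexpression over IFN empty vector the median was -0.06 (95% rank interval -0.13 to -0.02) and 51 of 73 genes (69.9%) lay below 0. RPL7 was higher by 0.5, where 6.59% of all 11753 genes were, and RPS14 and RPL19 were lower, where 3.85% were. The interval lay below 0 for 10 genes, where 9.82% of all genes did, and above 0 for 4, where 13.7% did. The 4 were RPL7, RPL9, RPS23 and RPS25. Before the median of all genes was taken off, that median was -0.17 in PHF19 overexpression over empty vector and 0.18 in the IFN pair, so the uncentred medians of the 73 genes, -0.30 and 0.12, had opposite signs.

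The 2 pairs of libraries have no library in common. In both, however, the overexpression library had fewer fragments, at 18.2 against 27.4 M in the first pair and 16.4 against 65.9 M in the IFN pair. Depth and PHF19 overexpression thus cannot be told apart in either pair. Of the 73 genes 43 (58.9%) were below 0 in both pairs, 13 (17.8%) above 0 in both and 17 of opposite sign, where 33.6% of all 11483 genes with both ratios were below in both and 32.9% above in both. Pearson's r between the pairs was 0.56 over the 73 genes and 0.60 over all genes, each a description over genes. RPL23A, RPL27A and RPS14 had intervals below 0 in both pairs, and RPL7 and RPL9 above 0 in both, though the value of RPL27A depended on which of its peaks was read. The share of all genes with such intervals in both pairs is not given here, so these are values of single genes and not of the list. Both subunits showed the same median direction: large subunit genes had -0.13 and -0.05 in the 2 pairs, with 29 of 43 genes below 0 in each, and small subunit genes -0.12 and -0.07, with 23 and 22 of 30 below 0.

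**Figure D2:**
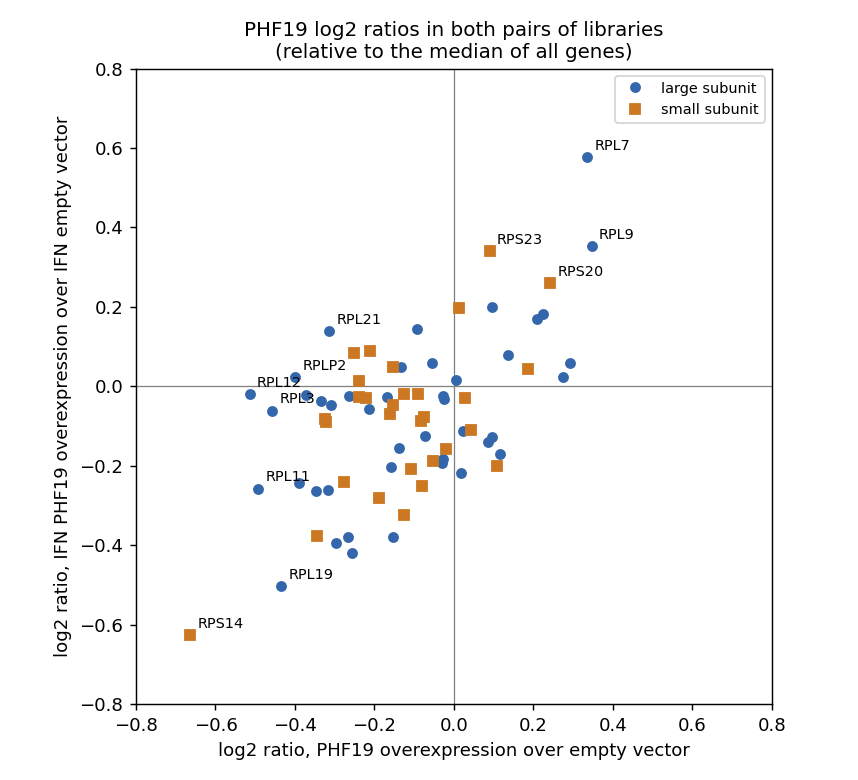
Log2 ratio of gene-end peak height, PHF19 overexpression over empty vector (horizontal axis) against IFN PHF19 overexpression over IFN empty vector (vertical axis), relative to the median of all genes, with 1 point per ribosomal protein gene and the subunit shown by the symbol. Of the 73 points 43 lie at the lower left and 13 at the upper right, with RPS14 lowest in both pairs and RPL7 and RPL9 highest.

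RPS14, a small subunit gene whose loss of one copy causes the anaemia of the 5q- syndrome, was the lowest in both pairs. Its peak at the start shown above had 9.16 fragments per M in PHF19 overexpression and 16.4 in empty vector, and 9.89 in IFN PHF19 overexpression and 13.5 in IFN empty vector. Both overexpression libraries were below both empty vector libraries. The log2 ratio was -0.66 (95% counting interval -0.93 to -0.40) in the first pair and -0.63 (-0.88 to -0.38) in the IFN pair. The genes around it were low as well: the median over genes within 2.5 Mb was -0.47 in each pair, and RPS14 less that median was -0.19 and -0.15.

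RPL9, a large subunit gene on chromosome 4, had 9.11 fragments per M in PHF19 overexpression and 8.08 in empty vector, and 10.1 in IFN PHF19 overexpression and 7.01 in IFN empty vector. Both overexpression libraries were above both empty vector libraries. Its log2 ratio was 0.35 in each pair, with intervals of 0.05 to 0.64 and 0.09 to 0.61. The median of the genes within 2.5 Mb was 0.47 and 0.43, so RPL9 lay just under its surroundings.

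RPL7, on chromosome 8, had 14.9 and 13.3 fragments per M in PHF19 overexpression and empty vector, and 17.0 and 10.0 in IFN PHF19 overexpression and IFN empty vector. The peak was shared with an end of RDH10, and its summits in the 4 libraries spanned 447 bp. The log2 ratios of RPL7 were 0.34 (0.10 to 0.57) and 0.58 (0.37 to 0.78), beside 0.37 and 0.35 for the genes within 2.5 Mb. The 4 members of that chromosome (RPL7, RPL8, RPL30 and RPS20) had medians of 0.23 and 0.22 in the 2 pairs, and all its genes had 0.31 and 0.30. RPS20 and RPL30 were above 0 in both pairs, at 0.24 and 0.26 for RPS20 and 0.21 and 0.17 for RPL30, each with intervals that include 0. DNA copy number was not measured here, and its part in these local values was not tested.

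**Figure D3:**
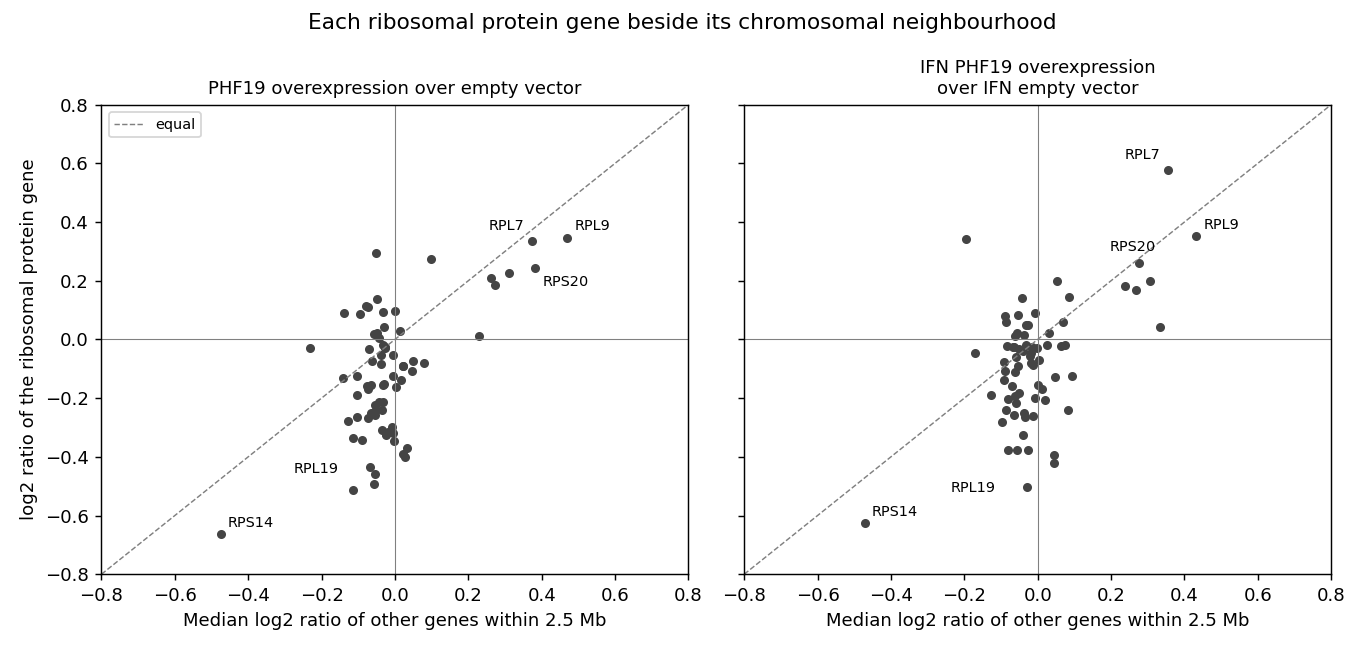
Log2 ratio of each ribosomal protein gene (vertical axis) against the median log2 ratio of the other genes within 2.5 Mb (horizontal axis), relative to the median of all genes, in PHF19 overexpression over empty vector (left) and the IFN pair (right). The dashed line marks equal values: RPS14 stands far left and low, and RPL9, RPL7 and RPS20 stand to the right, while RPL19 is low beside a local median near 0.

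Taking the local median off each gene left the list's medians almost where they were, at -0.12 and -0.06 in the 2 pairs, with 53 and 51 of 73 genes below 0. It lowered Pearson's r between the pairs to 0.32 over the 73 genes and to 0.49 over all genes. With the genes of chromosomes 4, 5 and 8 left out, the medians of the other 63 genes were -0.15 and -0.08, with 47 and 48 genes below 0.

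RPL19 was low in both pairs without such surroundings. It had 3.40 fragments per M in PHF19 overexpression and 5.19 in empty vector, and 3.05 in IFN PHF19 overexpression and 3.82 in IFN empty vector. The log2 ratio was -0.44 (-0.89 to 0.005) in the first pair and -0.50 (-0.97 to -0.06) in the IFN pair, beside local medians of -0.07 and -0.03. These intervals are wide because the peak rested on 62 and 142 fragments in the first pair and 50 and 252 in the second. RPL27A had 9.60 and 13.8 fragments per M in PHF19 overexpression and empty vector, and 10.8 and 11.5 in the IFN pair. Its log2 ratios were -0.35 (-0.61 to -0.08) and -0.26 (-0.51 to -0.02), with local medians near 0, and its tallest peak lies away from its listed start. With peaks sought within 500 bp its ratios became 0.03 and -0.66, since the start peak was then read in empty vector and IFN PHF19 overexpression and the taller one in the other 2 libraries. Read at its start in all 4 libraries, with 7.74 and 10.6 fragments per M in the first pair and 8.18 and 8.35 in the IFN pair, it had -0.27 and -0.20. RPL23A, whose peak was shared with an end of RAB34, stood at -0.32 and -0.26 in the 2 pairs. RPS23, a small subunit protein near the decoding centre, was above low surroundings, at 0.09 and 0.34 in the 2 pairs beside local medians of -0.14 and -0.20.

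RPS18, RPL7A and RPL23 were also among the lowest in both pairs. RPS18 had log2 ratios of -0.34 (-0.73 to 0.03) and -0.38 (-0.75 to -0.02). RPL7A had -0.30 (-0.72 to 0.11) and -0.39 (-0.80 to -0.01), and its summit lay at -583 and -599 bases from the start in PHF19 overexpression and IFN PHF19 overexpression but at -66 and -68 bases in empty vector and IFN empty vector. RPL23 had -0.27 (-0.67 to 0.12) and -0.38 (-0.77 to -0.004). At the other side, RPL37A had 0.23 and 0.18 beside local medians of 0.31 and 0.24, and RPL24 had 0.10 and 0.20, all 4 with intervals that include 0.

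The stalk proteins P0, P1 and P2, which recruit elongation factors to the ribosome, were below the median gene in the first pair. RPLP0 had 8.94 fragments per M in PHF19 overexpression and 11.7 in empty vector, a log2 ratio of -0.21 (-0.49 to 0.06), and -0.06 in the IFN pair. RPLP1 had 6.75 and 9.98, a log2 ratio of -0.39 (-0.71 to -0.08), and -0.24 (-0.55 to 0.06) in the IFN pair. RPLP2 had 8.61 and 12.8, a log2 ratio of -0.40 (-0.68 to -0.13), but 9.53 and 8.29 in IFN PHF19 overexpression and IFN empty vector, a log2 ratio of 0.02 (-0.24 to 0.28). RPL12, which forms the base of the stalk with P0, was likewise low in the first pair only. It had 5.10 and 8.22 fragments per M and -0.51 (-0.88 to -0.16), and -0.02 (-0.34 to 0.29) in the IFN pair. The peaks of RPL12 and RPLP2 were shared with ends of LRSAM1 and PIDD1.

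The difference between the pairs, IFN pair minus first pair, was 0.49 (approximate 95% counting interval 0.03 to 0.96) for RPL12 and 0.42 (0.05 to 0.80) for RPLP2. These were the only 2 of 73 intervals clear of 0, and 39 of 73 differences were above 0. The median difference was 0.01 over the 73 genes and -0.001 over all 11483 genes. The share of all genes with such an interval is not given here, so the 2 describe single genes and not the list. RPL21 and RPL3 came next in size: RPL21 had -0.31 and 0.14 in the first and the IFN pair, and RPL3, which reaches into the peptidyl transferase centre, had -0.46 (-0.81 to -0.12) and -0.06 (-0.38 to 0.25).

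Some genes known from disease were looked at by name. RPL5 and RPL11, which with 5S ribosomal RNA bind MDM2 when ribosome assembly fails, had log2 ratios of -0.13 and -0.49 in the first pair and 0.05 and -0.26 in the IFN pair, and only the -0.49 of RPL11 had an interval clear of 0 (-0.97 to -0.03). RPL11 had 3.02 and 4.79 fragments per M in PHF19 overexpression and empty vector, and 4.40 and 4.64 in the IFN pair. RPS19, the gene most often mutated in Diamond-Blackfan anaemia, had 10.0 and 11.5, and 9.16 and 9.03, with log2 ratios of -0.02 and -0.16. RPSA, a small subunit protein also known as the laminin receptor, had 10.4 and 13.2, and 12.3 and 11.4, with -0.16 and -0.07. All the intervals of RPS19 and RPSA include 0.

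The second question was how the libraries with the IFN prefix differed from those without. These 2 comparisons share every library with the PHF19 comparisons, so their values are set side by side and not added to them. In IFN PHF19 overexpression over PHF19 overexpression the median log2 ratio of the 73 genes was 0.06 (95% rank interval -0.04 to 0.10), from -0.33 to 0.49, and in IFN empty vector over empty vector -0.02 (-0.06 to 0.02), from -0.34 to 0.29. No gene was past 0.5 in either direction in either comparison. Over all genes 2.13% were higher and 1.65% lower by 0.5 with PHF19 overexpression, and 3.47% higher and 0.286% lower with empty vector. Counting intervals lay below 0 for 0 genes and above 0 for 0 genes with PHF19 overexpression, where 2.34% and 2.42% of all genes did, and below 0 for 2 (RPS7 and RPLP2) and above 0 for 1 (RPL37) with empty vector, where 8.76% and 6.6% did.

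The genes with the largest ratios of the same sign in both were RPL11, RPL34, RPL30 and RPS20 on the higher side and RPL19, RPL6, RPL35 and RPL10A on the lower side. RPL11 had 0.49 (-0.04 to 1.02) with PHF19 overexpression and 0.24 (-0.06 to 0.55) with empty vector, and RPL34 0.36 and 0.23. RPL19 had -0.21 and -0.15, RPL6 -0.24 and -0.19, RPL35 -0.16 and -0.18 and RPL10A -0.14 and -0.15. None of these 8 genes had an interval clear of 0 in either comparison.

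Other parts of the translation machinery give the setting. The mitochondrial ribosomal proteins had median log2 ratios of -0.05 in PHF19 overexpression over empty vector, with 40 of 73 genes below 0, and -0.02 in the IFN pair, with 39 of 73. Translation initiation factors had -0.05 and -0.11, with 17 and 19 of 25 genes below 0, and 0 of 25 past 0.5 in either pair, where the shares over all genes given above were 7.84% higher and 2.67% lower in the first pair and 6.59% and 3.85% in the IFN pair. Elongation and termination factors had -0.06 and 0.03 over 9 genes. Ribosome assembly factors had 0.04 and -0.01 over 37 genes, with 17 and 19 below 0. Their interquartile ranges overlap those of the cytoplasmic set, and no difference between lists was tested.

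**Figure D4:**
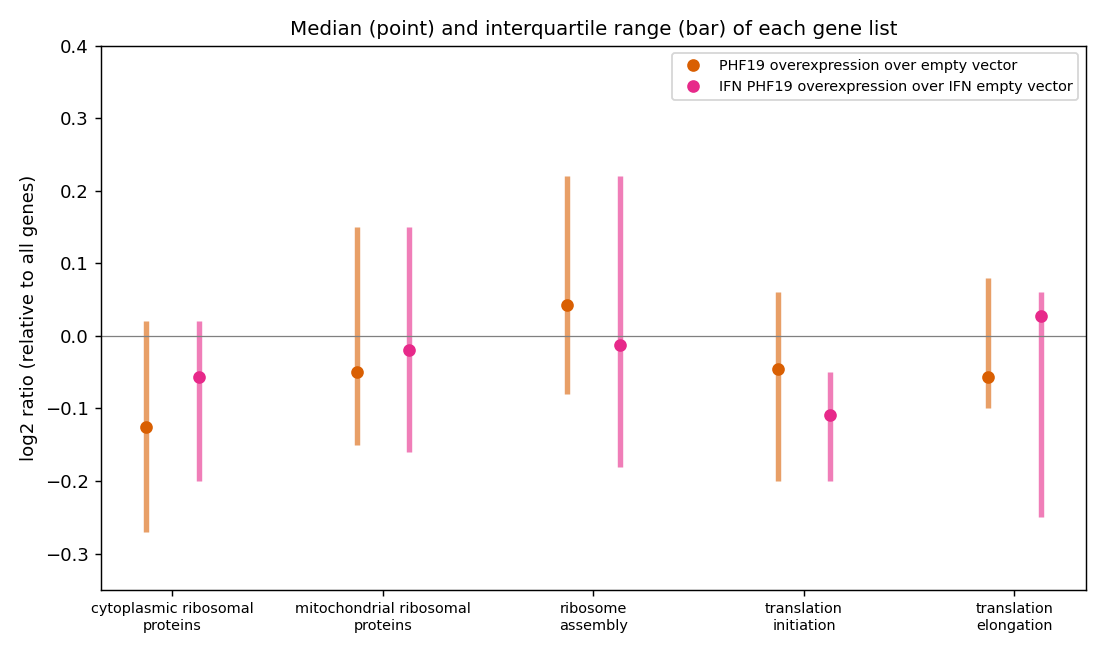
Log2 ratio of gene-end peak height relative to the median of all genes for the 73 cytoplasmic ribosomal protein genes and 4 other lists of the translation machinery, in PHF19 overexpression over empty vector and in the IFN pair. Points are medians and bars the interquartile range of a list. The cytoplasmic set has the lowest median in the first pair, -0.13, and the initiation factors have the lowest in the IFN pair, -0.11, and the bars overlap throughout.

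Of the 37 assembly factors 2 were higher and 1 lower by 0.5 in the first pair, and 3 higher and 1 lower in the IFN pair. These counts are near the shares over all genes, so the values that follow describe single genes and not the list. POLR1A, the largest subunit of RNA polymerase I, which makes ribosomal RNA, had 12.5 fragments per M in PHF19 overexpression and 9.98 in empty vector, and 14.2 in IFN PHF19 overexpression and 7.75 in IFN empty vector, log2 ratios of 0.50 and 0.69. NHP2, a protein of the H/ACA snoRNA particle, had 0.55 and 0.44, and NOP2, which modifies ribosomal RNA, 0.30 and 0.65. UTP15, a processing factor for the small subunit, had 8.61 and 17.6 fragments per M, and 10.1 and 13.2 in the IFN pair, log2 ratios of -0.86 and -0.57. RRS1 had 0.35 and 0.51. NCL and NPM1, the abundant nucleolar proteins nucleolin and nucleophosmin, had 0.25 and 0.31 for NCL and 0.40 and just under 0.5 for NPM1. NHP2, NPM1 and UTP15 lie on chromosome 5, and RRS1 on chromosome 8, whose genes had medians of 0.31 and 0.30. Local medians are not given for these single genes, so their values may be shared with their surroundings, which was not tested. With local medians removed, the list had medians of -0.018 and -0.045 in the 2 pairs.

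Components of the cytoplasmic ribosome whose symbols fall outside the RPL and RPS pattern were also looked at. FAU, which codes for a fusion with the small subunit protein S30, had 8.83 and 10.4 fragments per M in PHF19 overexpression and empty vector, and log2 ratios of -0.06 and -0.05 in the 2 pairs. RACK1, a scaffold protein on the small subunit, had 6.47 and 6.36, and log2 ratios of 0.20 and just under 0.5. RACK1 lies on chromosome 5. The median of FAU and RACK1 was 0.068 and 0.223 in the 2 pairs, and -0.138 and 0.002 with local medians removed. Of the 8 paralogs of ribosomal protein genes looked at, 6 had a peak in all 4 libraries and RPL10L and RPL26L1 had none listed. Those 6 had a median of 0.02 in the first pair, with 2 below 0, and -0.19 in the IFN pair, with all 6 below 0, and RPL22L1 was lowest in both, at -0.33 each.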

How the data were processed

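Peak lists of 4 ATAC-seq libraries of AMO1 cells were used. Per the file headers, the authors called peaks in each library with MACS2 2.1.2 on paired fragments without a control, at a q of 0.01, keeping duplicates. Per the submitters' processing notes, bcl2fastq 2.17, Trimmomatic 0.38, DiffBind and the build hg38 were used. The aligner is not given in the sources used here, nor is any Tn5 shift. The authors' deposited pileup is a signal, the fragment coverage at the summit, unscaled per the file headers. The deposited −log10 q-value column, the −log10 p-value column and the fold enrichment, a ratio to local background, are the authors' values and served only as a stricter filter or as an alternative rank within a list.

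Groups were taken from the sample labels. Fragments in the file headers numbered 18.2, 27.4, 16.4 and 65.9 M (mega), and the lowest listed pileups were 8, 10, 8 and 16. Gene bounds, promoters and snoRNA genes came from RefSeq tables (GRCh38.p14). For each gene the tallest pileup among peaks within 1000 bp of either end was scaled to fragments per M of that library. Log2 ratios were centred on the median of all autosomal protein-coding genes with a peak in both libraries. Counting intervals of single log2 ratios are exact at 95% for independent fragments. Those of the differences between pairs are symmetric approximations at 95%. Both kinds cover counting error only. Duplicates were kept, so fragments may not be independent and these intervals may be too narrow. Rank intervals of medians are over genes. Computation used Python 3.11.15, numpy 2.4.6, pandas 2.3.3 and scipy 1.17.1, and the steps were tested on simulated data. No test between groups was made: each holds 1 library, and a fit that took the pairs with and without the prefix as repeats would leave 1 residual degree of freedom.

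The members and lists were chosen with earlier results of these data known. Named genes were the 4 tallest and 4 lowest, the 6 per direction with the largest smaller ratio of both PHF19 comparisons, the 4 per direction likewise for the IFN prefix, the 4 with the largest difference between pairs, and 8 fixed by name. Other genes (the remaining interval calls, RPS2, RPL4, RPL8 and all genes that are not ribosomal proteins) were named after their values were seen. Some single-gene results are not reported here.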

Additional observations from a re-analysis of the deposited data

Results flagged for a closer look

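The median log2 ratio of the 73 ribosomal protein genes had opposite signs in the comparisons across the IFN prefix, 0.057 in IFN PHF19 overexpression over PHF19 overexpression and -0.016 in IFN empty vector over empty vector. This difference was not tested, and both rank intervals include 0. For RPL12 and RPLP2 the approximate 95% counting interval of the difference between the PHF19 comparisons lay just clear of 0, with lower limits of 0.03 and 0.05. The log2 ratio of the IFN pair was 0.49 above that of the first pair for RPL12 and 0.42 above it for RPLP2. There is 1 library per group, so neither difference has a replicate behind it, and 2 of 73 genes is a small share when each interval is at 95%.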

How the results depend on the processing

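The median log2 ratio of the 73 genes was below 0 in PHF19 overexpression over empty vector under every setting tried (-0.300 to -0.100), and in the IFN pair under every setting but the one without centring. Of 144 alternative values for the medians, counts and ranks, 114 stayed within 1.5 times the count given above or within the rank interval, 29 moved and 1 reversed. The cause was not tested, apart from shifts that the setting itself makes by moving the zero, the threshold or the genes counted.

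Without centring the medians were -0.300 in PHF19 overexpression over empty vector and 0.123 in the IFN pair, the reversed one, and 0.111 in IFN PHF19 overexpression over PHF19 overexpression and -0.304 in IFN empty vector over empty vector. The counts past 0.5 became 11 lower in the first pair (7.39% of all genes were), 3 higher and 0 lower in the IFN pair (14.3% and 1.95%), 1 higher for the prefix with PHF19 overexpression (2.83%) and 3 lower for it with empty vector (9.95%). At a threshold of 0.3, 2 genes were higher and 16 lower in the first pair (16.7% and 9.09% of all genes), 3 higher and 8 lower in the IFN pair (15.7% and 10.9%), 5 higher and 1 lower for the prefix with PHF19 overexpression (7.62% and 6.75%), and 1 lower for it with empty vector (3.83%). With the local median removed 0 genes were lower in the first pair and 0 in the IFN pair (2.03% and 3.43% of all genes), and 1 was higher for the prefix with PHF19 overexpression (2.2%). With the height trend removed 4 were lower in the first pair (3.84%). With only the end at the gene start, known for 58 genes, 4 were lower in the first pair (2.46%) and 0 higher in the IFN pair (5.7%). RPL7, higher in the IFN pair above, has no listed start and was not counted. The 4 include RPL41 at -1.44, where a separate start peak was set against a merged one, and without it 3 were lower in the first pair and 1 in the IFN pair. With peaks within 500 bp 4 were lower in the IFN pair (3.84%) and 1, RPL17, higher for the prefix with empty vector (3.03%). For RPL17 and RPL27A that window read different peaks in different libraries, and without them 2 were lower in the IFN pair and 0 higher for the prefix. Without genes that share a peak with a neighbour 1 was lower in the first pair and 0 higher in the IFN pair. Leaving out chromosomes 4, 5 and 8, a choice made after seeing the data, left 1 lower in the first pair and 0 higher and 1 lower in the IFN pair. Leaving out RPS2 and the 5 genes with a tallest peak away from a listed start was also chosen after seeing the data and changed no count past 0.5. Ranked by fold enrichment, the median percentile in empty vector was 47.1 in place of 54.4. No paired fit was made: each group holds 1 library, so no group shares 2 replicate numbers with another. Depth limits single genes: the median counting interval was 0.63 wide in the first pair and 0.58 in the IFN pair.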

Other observations

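The 4 ribosomal protein genes of the X chromosome with a gene-end peak in the lists were outside the autosomal rule. RPL10 had 7.68 fragments per M in PHF19 overexpression and 12.5 in empty vector, and 7.94 in each library of the IFN pair, log2 ratios of -0.53 and -0.18 on the autosomal scale. RPL39 had 5.98 and 8.55, and 7.88 and 7.39, with -0.34 and -0.09. RPL36A had -0.17 in each pair, and RPS4X -0.14 and -0.10. All 4 lay below 0 in both pairs, where 33.6% of the autosomal genes with both ratios did. The median of the other X chromosome genes is not given here. A shift shared by that chromosome was thus not tested.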
